A study of Mus musculus with 20 samples.

Results

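The m6A writer complex genes were followed by symbol through the 3 assays of the series: Mettl3, Mettl14, Wtap, Virma, Zc3h13, Rbm15, Rbm15b, Cbll1 and Mettl16, 9 of 49997 genes in the gene table used here. All 9 had ATAC intervals, 8 had a chromatin RNA level, and 6 had at least 1 listed m6A position in at least 1 library. The material was mouse C57BL/6 embryonic stem cells (ESC) and cardiomyocyte cultures (CM) grown from them through embryoid bodies. Each cell type was either WT or Mettl3-KO, which gave 4 groups: WT and KO ESC, and WT and KO CM. Chromatin-associated RNA (ChrRNA) and its m6A (Chrm6A, with antibodies from Millipore and Synaptic Systems) had 1 library per group, and ATAC-seq, which marks open chromatin by transposase insertion, had 3. The labels do not give the deleted part of Mettl3, the number of knockout clones or whether the ATAC libraries came from separate cultures, so p-values measure only the spread between libraries, which may be technical.

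N6-methyladenosine (m6A) is written on nuclear RNA by a heterodimer in which METTL3 holds the catalytic site and METTL14 supports it and helps bind RNA. A larger regulatory assembly places this pair on its targets: WTAP anchors the pair in nuclear speckles, VIRMA is a large scaffold, ZC3H13 helps keep the complex in the nucleus, CBLL1 (also called HAKAI) is a RING-type E3 ubiquitin ligase, and RBM15 and RBM15B bind RNA and bring the complex to some transcripts, among them Xist. METTL16 is a separate methyltransferase that acts on U6 snRNA and on hairpins of the Mat2a transcript. In mouse ESC, m6A is known to promote the turnover of transcripts that sustain pluripotency.

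The ATAC data bear on the starts of these genes, because an interval covered the start in all 12 libraries for each of the 7 members with a RefSeq promoter entry (GRCm38.p6, the assembly behind mm10). For Mettl14 and Virma, which had no such entry, an interval covered 1 gene end in all 12 libraries. The upstream letters of 2 members are shown, Wtap because its RNA differed most between the cell types and Rbm15b because its accessible regions differed between them. Both run 5′ to 3′ on the minus strand and end 1 base before the gene start, and capitals mark matches on either strand to 4 motifs. The GC box was searched as GGGCGG, the CCAAT box by the letters of its name, the ETS motif as CCGGAA and the E-box as CACGTG.
Wtap, chr17:12992544-12992793: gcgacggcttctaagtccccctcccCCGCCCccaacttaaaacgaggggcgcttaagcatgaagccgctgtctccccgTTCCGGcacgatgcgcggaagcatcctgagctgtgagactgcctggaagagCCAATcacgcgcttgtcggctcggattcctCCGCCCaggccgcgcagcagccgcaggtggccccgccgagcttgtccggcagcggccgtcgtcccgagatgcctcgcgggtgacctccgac
Rbm15b, chr9:106887076-106887325: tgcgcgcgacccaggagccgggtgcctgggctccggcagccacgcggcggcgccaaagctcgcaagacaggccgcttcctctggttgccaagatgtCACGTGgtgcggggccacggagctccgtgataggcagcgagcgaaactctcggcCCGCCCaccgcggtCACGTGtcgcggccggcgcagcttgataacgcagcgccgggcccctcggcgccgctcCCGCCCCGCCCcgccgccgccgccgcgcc

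The Wtap stretch held 2 GC boxes, 1 CCAAT and 1 ETS match, and that of Rbm15b held 3 GC boxes and 2 E-box matches. Neighbouring matches to the GC box can overlap. Over 32851 RefSeq promoter windows of the same 250 bases, 32.7% held a GC box, 33.8% CCAAT, 12.03% the ETS letters and 6.02% the E-box. None of the 7 matched members held the TATAAA letters (12.4% of all windows) or the cAMP response element TGACGTCA (1.55%), nor a match to the NRF1 motif (0.782%). The GC content of the windows was 76.0% for Rbm15b, 68.0% for Wtap at its upstream start, 62.8% for Cbll1, 56.8% for Mettl16, 51.6% for Rbm15 and 50.4% for Mettl3, against a median of 52.4% over all windows. Zc3h13, with 2 annotated starts 7 bases apart, had 59.2% and 60.4%.

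The cell types were checked by marker genes. Of 8 pluripotency markers 7 had an RPKM, and Sox2 had none in any library. Summed over these 7, RPKM was 65.7 (WT) and 62.5 (KO) in ESC, and 8.22 (WT) and 14.2 (KO) in CM. Over 10 cardiomyocyte markers it was 0.941, 0.718, 10.1 and 1.64 in that order, with 5 markers at 1 RPKM or more in CM WT and 0 in CM KO. All 10 were listed in both CM libraries, but only 7 in ESC WT and 6 in ESC KO. CM KO therefore lacked a cardiomyocyte marker at 1 RPKM, and both CM libraries held markers of other cells: fibroblast markers summed to 28.8 RPKM in CM WT and 8.47 in CM KO, endoderm markers to 14.5 and 6.14, and blood markers to 40.7 and 45.1. The part of cell composition in the results below was not tested, and in such bulk samples fewer expressing cells and less RNA per cell cannot be told apart. Read totals recovered from the RPKM steps ran from 27974123 to 29844421 over the 4 libraries.

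The level of chromatin RNA was taken first, as RPKM (reads per kilobase of gene, scaled to the library's reads). A comparison between genes by this value depends on the gene length used. Mettl3, the catalytic subunit, stood in ESC at 1.73 RPKM for WT (506 reads) and 1.28 for KO (377 reads), and in CM at 1.18 for WT (364 reads) and 1.07 for KO (333 reads). Both knockout libraries thus still carried Mettl3 reads at more than 1 RPKM. Since the deleted part is not given and a count over the whole gene does not show the protein, this level does not check the labels. The gene (chr14:52294841-52308741) overlaps the neighbouring gene Tox4 at its end, and Tox4 stood at 0.966, 0.749, 0.759 and 0.744 RPKM in the same order. The sources used here do not say whether reads were assigned by strand, so those of the shared stretch cannot be split between the 2 genes.

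Mettl14 (chr3:123368295-123385990), the partner of METTL3, stood in ESC at 1.22 RPKM for WT and 1.05 for KO, and in CM at 0.794 for WT and 1.10 for KO. CM WT was its lowest library. Wtap (chr17:12966799-12992543) stood at 4.64, 4.23, 1.99 and 2.36 RPKM in the same order, so both ESC libraries were above both CM libraries. Rbm15 (chr3:107305511-107334460), an RNA-binding member, was the highest of the 8 in every library, at 7.72, 6.75, 5.12 and 6.75 RPKM, over the 98th percentile of protein-coding genes in each. The length behind its RPKM was 8253 bases, shorter than its RefSeq span of 28950, which also overlaps Slc16a4.

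Mettl16 (chr11:74770815-74826855) stood in ESC at 2.36 RPKM for WT and 2.18 for KO, and in CM at 1.22 and 1.46, again with both ESC libraries on top. Cbll1 (chr12:31484829-31500676), which overlaps the long noncoding RNA gene Gm40362, stood at 1.46, 1.30, 0.931 and 1.19 RPKM. Zc3h13 (chr14:75284306-75344433) stood at 1.32, 1.19, 0.990 and 1.10 RPKM. For Cbll1, Zc3h13 and Mettl3 too, both ESC libraries were above both CM libraries, by narrower margins. Virma (chr4:11485958-11551143), the scaffold, was the member that varied least, at 0.901, 0.960, 0.982 and 0.974 RPKM. No RPKM was listed in any library for Rbm15b (chr9:106880928-106887075), which overlaps Dcaf1.

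In each library the order ran Rbm15, Wtap, Mettl16, and then the others within a narrow range. This order depends on the lengths behind the RPKM, and that of Rbm15 was far below its RefSeq span. Those of Mettl3 (10461 bases against a span of 13901) and Cbll1 (14788 against 15848) were shorter too, so their places also depend on the length used. The 95% counting intervals of the top 3 did not overlap in ESC WT (7.37 to 8.09 RPKM, 4.48 to 4.80 and 2.29 to 2.44). Below them in ESC WT, Mettl3 (1.58 to 1.89) and Cbll1 (1.35 to 1.58) touched, and Zc3h13 (1.27 to 1.38) overlapped both Cbll1 and Mettl14 (1.13 to 1.32). Virma was the lowest there, at 0.858 to 0.946. In CM WT the intervals of Mettl16 (1.17 to 1.28) and Mettl3 (1.06 to 1.31) overlapped, as did those of Zc3h13 (0.944 to 1.04), Virma (0.938 to 1.03) and Cbll1 (0.843 to 1.03), with Mettl14 lowest (0.720 to 0.874). These intervals cover counting error only.

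**Figure D1:**
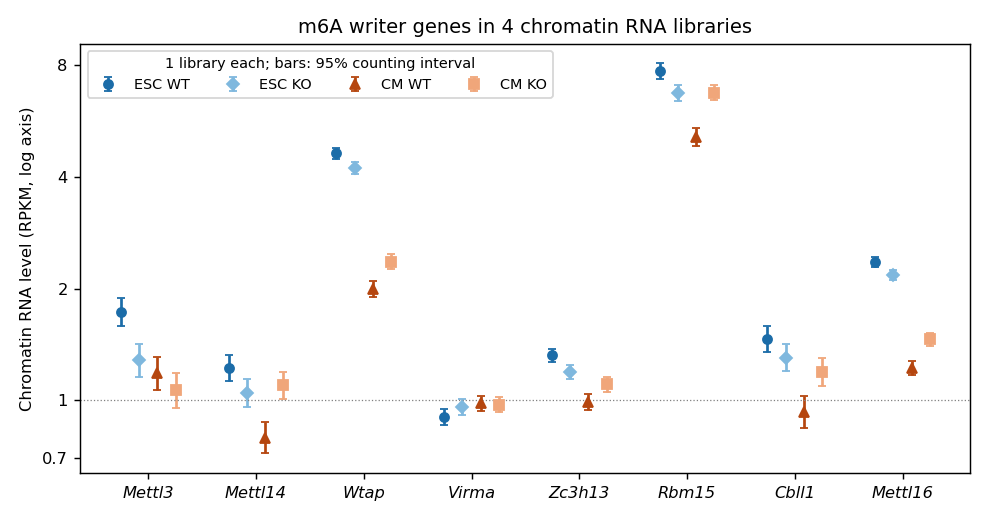
Chromatin RNA level of 8 writer genes (RPKM, log axis) in the 4 libraries, with bars for the 95% counting interval of 1 library each. Rbm15 sits highest at 5.12 to 7.72 RPKM, Wtap and Mettl16 lie furthest apart between the cell types, and Virma stays between 0.901 and 0.982.

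Genes with the profile most like that of Mettl3 over the 4 libraries were Calm2, Sbds, Rab5a, Uqcrh and Trit1, with Euclidean distances of 0.02, 0.04, 0.05, 0.05 and 0.05 between centred log2(RPKM + 1) profiles. Of 2668 protein-coding genes at 1 RPKM or more in all 4 libraries, 40 lay within 0.1 of Mettl3. For Mettl14 the nearest were Orc4, Raly, Zbtb6, Med17 and Caprin1, at 0.02, 0.02, 0.02, 0.03 and 0.03, and 134 of 2669 genes lay within 0.1. With 4 libraries such closeness is common and is given as a description.

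The next comparison asked how the writers differed between the cell types. In WT, all 7 members at 1 RPKM or more in either library were lower in CM than in ESC, where 69.8% of the 5763 genes so filtered were lower and 30.2% higher. Mettl14, Cbll1 and Zc3h13 passed this filter through ESC WT alone, the library where they were higher. Virma, which was higher in CM, did not pass it, so the count depends in part on the filter. Wtap was 0.430 of its ESC level (0.404 to 0.457) and was the only member past 2-fold, a fold that 19.3% of genes passed downward and 9.18% upward. Mettl16 was 0.518 (0.491 to 0.547), Cbll1 0.637 (0.560 to 0.723), Mettl14 0.651 (0.573 to 0.738), Rbm15 0.663 (0.616 to 0.713), Mettl3 0.684 (0.596 to 0.784) and Zc3h13 0.748 (0.702 to 0.797). At 1.5-fold 5 members were lower (40.3% of genes lower, 14.3% higher), and 7 had at most 0.8 of the ESC level (55.5% of genes, with 19.9% as far above). The median fold of the members was 0.651, against 0.747 over all genes. Divided by that shift of all genes, Wtap came to 0.576, Mettl16 to 0.693, Mettl3 to 0.916 (0.798 to 1.05) and Zc3h13 to 1.00 (0.940 to 1.07). Virma, below the filter, was 1.09 of its ESC level (1.02 to 1.16), or 1.46 relative to all genes.

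In the knockout, 5 of the 7 members were lower in CM and 2 higher, against 53.7% of 5447 genes lower and 46.3% higher. None passed 2-fold, which 6.94% of genes passed downward and 10.7% upward. At 1.5-fold 1 member was lower (17.1% of genes lower, 19.7% higher), and 2 had at most 0.8 of the level (31% of genes, with 29.2% as far above). Wtap was 0.559 (0.527 to 0.592) and Mettl16 0.671 (0.637 to 0.706), the same 2 members that were lowest in WT. Mettl3 was 0.832 (0.715 to 0.966) and Zc3h13 0.926 (0.870 to 0.986). The intervals of Cbll1 (0.809 to 1.03), Rbm15 (0.934 to 1.07) and Mettl14 (0.931 to 1.18) included 1, and Virma stood at 1.02 (0.951 to 1.08). The members' median fold was 0.914, against 0.961 over all genes. These folds compare 2 libraries, not 2 conditions, and have no replicate check.

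The knockout was then compared with WT inside each cell type. In ESC all 7 members in the filter were below 1 in the ratio of KO to WT, where 69.7% of 5173 genes were. Mettl3 was the lowest member at 0.742 (0.647 to 0.849), and 17.4% of all genes had a lower ratio. Mettl14 stood at 0.858, Rbm15 at 0.873, Cbll1 at 0.892, Zc3h13 at 0.901, Wtap at 0.913 and Mettl16 at 0.923. None of the 7 was 2-fold lower or higher, as 1.7% and 1.45% of genes were, or 1.5-fold (9.2% and 3.4%). Mettl3 alone had at most 0.8 of the WT level, as 27.7% of genes had (7.93% were as far above), and 30.3% of genes were above 1. The median member ratio of 0.892 lay beside 0.903 over all genes, and relative to all genes only the interval of Mettl3 (0.717 to 0.941) excluded 1 among the 7. Virma, below the filter, came to 1.18 (1.10 to 1.26) on that scale. Tox4, which overlaps Mettl3, had a ratio of 0.776 (0.674 to 0.892).

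In CM, 6 of the 7 members were above 1 in the ratio of KO to WT and Mettl3 was below it, where 72.8% of 5105 genes were above. Mettl14, Cbll1 and Zc3h13 passed the filter through CM KO alone, the library where they were higher. Virma, at 0.992 (0.930 to 1.06), did not pass it, so this count also depends in part on the filter. Mettl14 stood at 1.38 (1.22 to 1.57), Rbm15 at 1.32 (1.23 to 1.42), Cbll1 at 1.28 (1.12 to 1.46), Mettl16 at 1.20 (1.13 to 1.27), Wtap at 1.19 (1.11 to 1.27) and Zc3h13 at 1.12 (1.05 to 1.19). Mettl3 stood at 0.902, with an interval from 0.775 to 1.05 that includes 1. None passed 2-fold, as 1.68% of genes did downward and 2.9% upward, or 1.5-fold (4.47% and 12.2%). The 3 highest were above by at least the inverse of 0.8, as 35.5% of genes were (9.91% were as far below), and 27.2% of genes were below 1. The members' median was 1.20 and that of all genes 1.15. Relative to all genes, Mettl3 came to 0.781 (0.671 to 0.909), Virma to 0.860 (0.806 to 0.917), Rbm15 to 1.14 (1.06 to 1.23) and Mettl14 to 1.20 (1.06 to 1.36), while the intervals of Wtap, Zc3h13, Cbll1 and Mettl16 included 1. The summed cardiomyocyte markers moved with this comparison, from 10.1 RPKM in CM WT to 1.64 in CM KO.

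**Figure D2:**
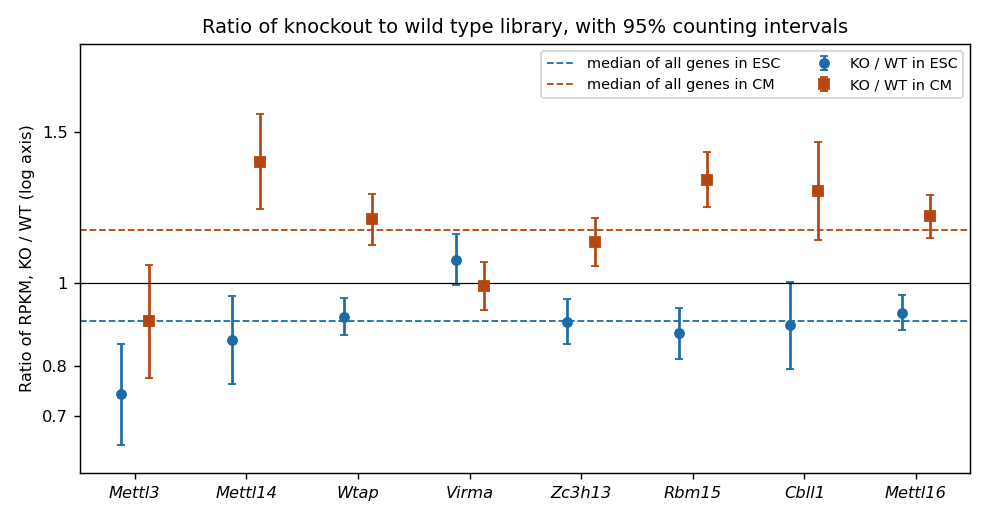
Ratio of RPKM in the knockout to the WT library (log axis) for 8 writer genes in ESC and CM, with 95% counting intervals, and dashed lines at the median of all genes (0.903 in ESC, 1.15 in CM). Mettl3 and, narrowly, Zc3h13 lie under both lines, and Mettl14, Rbm15, Cbll1, Mettl16 and Wtap lie above the CM line.

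Other genes of the m6A pathway were taken from 4 lists. Of 12 m6A readers in the filter, the proteins that bind the mark, 8 were lower and 4 higher in CM WT than in ESC WT. Over all genes in the filter 69.8% were lower and 30.2% higher. Igf2bp2, which binds and stabilises transcripts, was 4.27 times higher (2.13 against 0.499 RPKM), and Hnrnpc (0.632) and Ythdf1 (0.746) were lower. Between CM KO and ESC KO, Igf2bp2 was 3.00, Igf2bp3 1.51 and Fmr1 1.49, with 8 of 12 readers higher (46.3% of all genes). Between ESC KO and ESC WT, 5 of 10 readers were lower and 5 higher (69.7% and 30.3% of all genes). Hnrnpc stood at 0.751, Rbmx at 1.26 and Hnrnpa2b1 at 1.23. Between CM KO and CM WT, 9 of 12 were higher (72.8% of all genes), with Fmr1 at 1.41, Ythdf3 at 1.30 and Rbmx at 1.28. The median fold over all genes was 0.747, 0.961, 0.903 and 1.15 in these comparisons, in the order given. The folds of the other lists below are to be read beside the same medians.

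The erasers Fto and Alkbh5 demethylate m6A or the related cap mark. In CM WT against ESC WT, Fto was 1.22 and Alkbh5 1.02 (0.933 to 1.11), and in CM KO against ESC KO they were 1.51 and 1.49. Between CM KO and CM WT they were 1.17 and 1.32, and Alkbh5 was 0.897 between ESC KO and ESC WT. Of the other RNA methyltransferases, Mettl5, which acts on 18S rRNA, was 0.318 of its ESC level in CM WT, Mettl4 was 0.335 and Zcchc4, which acts on 28S rRNA, was 0.588. Between CM KO and ESC KO these 3 were 0.613, 0.537 and 0.759, and in ESC KO against ESC WT 0.826, 0.902 and 0.948. Zcchc4 was 1.22 between CM KO and CM WT.

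S-adenosylmethionine is the methyl donor of the writers. Mat2a, which makes it and whose transcript METTL16 methylates, stood in ESC at 9.49 RPKM for WT and 8.95 for KO, and in CM at 4.53 and 5.59, so it was lower in both CM libraries, as Mettl16 was. Its subunit partner Mat2b was 0.540 of the ESC level in CM WT and 0.712 in CM KO, and Ahcy, which clears the product S-adenosylhomocysteine, was 0.528 in CM WT. Ahcyl1 was 1.65 in CM KO against ESC KO. Within ESC, KO against WT, Mat2b was 0.830, Ahcyl2 0.771 and Ahcy 1.22. Within CM, Mat2a was 1.23, Ahcyl1 1.16 and Mat2b 1.09 (0.994 to 1.20).

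The writers' own transcripts were next searched for listed m6A positions. Each list gives a gene, a 4-letter motif and its distance from the gene start. The motif is GGAC or AGAC or GAAC or else AAAC, and the A before C is the base that m6A would occupy. The ESC lists held 16983 (WT) and 18076 (KO) positions, and the CM lists 25617 (WT) and 13962 (KO). In ESC the KO list was thus longer than the WT list. Whether listed positions depend on METTL3 was not tested. The sources used here state neither their depth nor the calling threshold, and the number of positions has no replicate. No position of Mettl3, Mettl14 or Rbm15b was on the lists used here. Rbm15b also had no RPKM in any library, so whether it could have been listed at all is not known. Mettl16 had 1, AGAC at 46639 bases from the start, in ESC KO alone. Of protein-coding genes at 1 RPKM or more, 72.8% (WT) and 76.9% (KO) had a position in ESC, and 85.6% (WT) and 65.9% (KO) in CM.

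Wtap had 14 (WT) and 10 (KO) positions in ESC, and 6 (WT) and 4 (KO) in CM. Both CM lists were below both ESC lists. Within CM the KO list had fewer positions, but more per 10000 listed positions (2.86 against 2.34). The RNA level of Wtap was lower in both CM libraries than in both ESC libraries, and within CM it was higher in KO. Whether the number of positions follows the RNA level was not tested. AGAC at 353 bases, AGAC at 17733 and GAAC at 22629 were on all 4 lists. Of its 17 distinct positions, 6 lay in the last 10th of the gene, and 8 were on 1 list. The share of the positions of all genes that lie in the last 10th was not computed, here or for Zc3h13 below. Rbm15 had 10, 9, 10 and 9 positions in the same order and thus kept a nearly constant number. GGAC at 1710 bases, GGAC at 2249, GAAC at 2618 and AAAC at 7624 were on all 4 of its lists, and 8 of its 16 distinct positions had the motif GGAC. Over all genes, GGAC made up 31.3% (WT) and 29.0% (KO) of the listed positions in ESC, and 33.5% (WT) and 32.8% (KO) in CM. At 1.09 to 1.21 positions per kilobase it was the most densely listed member by the length behind the RPKM values, and the highest in RNA. That length is far below its RefSeq span, by which Rbm15 is longer than Wtap and Cbll1, so its density and its RNA level depend on the length used.

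Zc3h13 had 9, 8, 7 and 5 positions, of which GGAC at 37358 bases was on all 4 lists, and 6 of its 13 distinct positions lay in the last 10th of the gene. Virma had 5, 6, 11 and 3 positions, so CM WT was its highest list and CM KO its lowest. AGAC at 33240 bases was on all 4 lists of Virma. The positions at 81 and 679 bases, in the first part of the gene, were listed in CM WT alone. Cbll1 had 2, 2, 3 and 1, with AGAC at 12163 bases on all 4 lists. Neighbouring lists sometimes gave motifs a few bases apart, as for Rbm15 at 2458, 2464 and 2479 bases, so that an exact match understates how often the same stretch was listed.

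**Figure D3:**
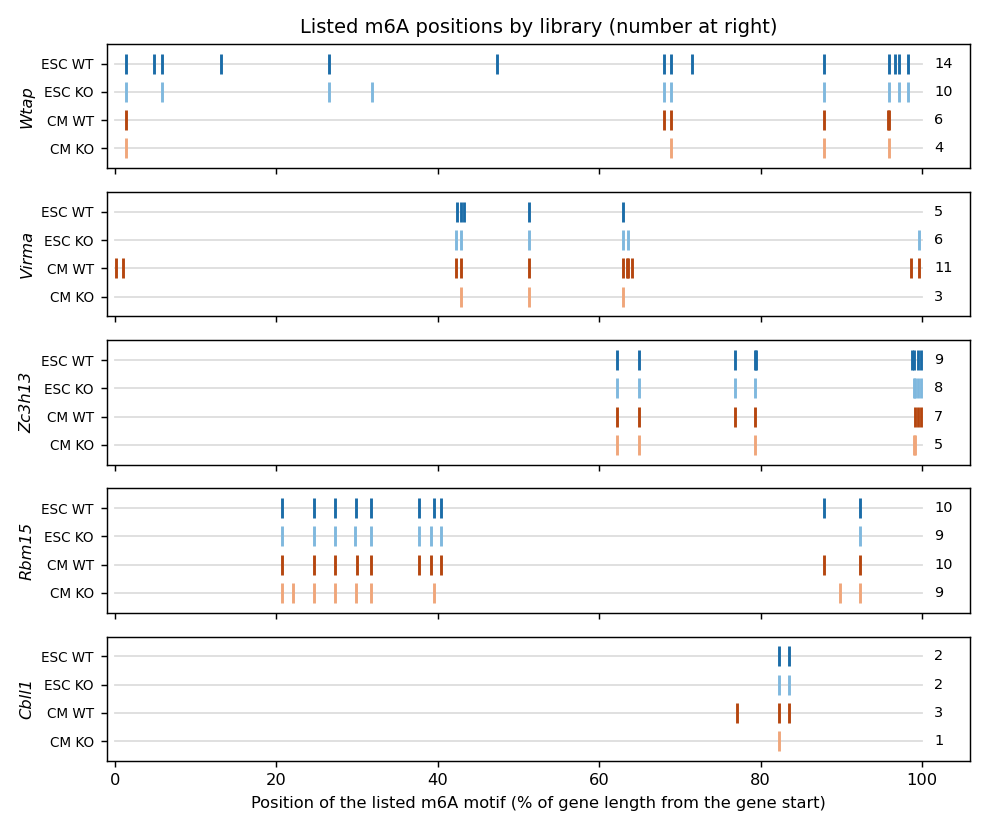
Listed m6A positions of 5 writer genes as percent of gene length from the gene start (x axis), 1 row per library, with the number of positions at the right. Positions of Zc3h13 gather in the last part of the gene, those of Rbm15 mostly between 20.7% and 40.5%, and Virma has 11 positions in CM WT against 3 in CM KO.

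Summed over members there were 65 distinct positions, of which 10 were on all 4 lists (15.4%), against 10.1% of 42515 distinct positions of all genes. Members had 40 positions in ESC WT and 37 in CM WT, a ratio of 0.925, while the list totals had a ratio of 1.51. Of the 5 members with a position, 2 had fewer in CM WT and 2 more, where 17.8% of 8031 genes had fewer and 60.5% more (26.7% and 66.9% of those with at least 5 in either list). They shared 19 positions, 47.5% of those in ESC WT and 51.4% of those in CM WT, where the lists of all genes shared 53.0% and 35.1%. In the knockout the members had 36 in ESC and 22 in CM, a ratio of 0.611 beside 0.772 for the list totals, and 5 of 6 members had fewer in CM, as 47.1% of 6349 genes had (28.6% had more, and with at least 5 positions 65.8% had fewer and 27.5% more). These lists shared 16 of the members' positions, 44.4% of those in ESC KO and 72.7% of those in CM KO, where all genes shared 38.4% and 49.7%.

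Between ESC KO and ESC WT, 3 of 6 members had fewer positions and 2 more, where 30.9% and 33.1% of 6038 genes had (36% and 49.3% of those with at least 5). The ratio of the members' positions was 0.900 and that of the totals 1.06, and 25 positions were shared, 62.5% of those in ESC WT and 69.4% of those in ESC KO, where all genes shared 53.9% and 50.7%. Between CM KO and CM WT, 5 of 5 members had fewer, where 74.4% of 7687 genes had fewer and 5.33% more. Among genes with at least 5 positions in either list, 86.6% had fewer and 7.03% more. They shared 14 positions, 37.8% of those in CM WT and 63.6% of those in CM KO, beside 35.6% and 65.3% over all genes. The members' ratio of 0.595 lay beside 0.545 for the list totals, so per 10000 listed positions Wtap, Zc3h13 and Rbm15 had more in CM KO (2.86, 3.58 and 6.45) than in CM WT (2.34, 2.73 and 3.90). Virma had fewer on that scale too, 2.15 against 4.29, and Cbll1 0.716 against 1.17.

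Chromatin accessibility at the writers was measured as the number of called ATAC intervals in the gene plus 2 kb on each side. ESC libraries held 107125 to 119307 (WT) and 111956 to 116605 (KO) intervals, and CM libraries 85443 to 94617 (WT) and 70132 to 76381 (KO). The fold enrichment and q-value of an interval are the authors' values. At the gene start, the fold of the members' intervals differed between genes more than between libraries. It ran from 8.92 to 11.96 at Mettl3 over the 12 libraries (median 10.6), 5.61 to 8.06 at Wtap (7.46), 11.2 to 15.9 at Zc3h13 (13.2), 7.15 to 9.39 at Rbm15 (7.98), 9.01 to 10.97 at Cbll1 (9.62) and 9.17 to 11.5 at Mettl16 (10.8). Rbm15b had the lowest, 4.69 to 6.36 (5.42). At the gene ends covered, Mettl14 had 12.9 to 19.0 (16.2) and Virma 13.1 to 17.2 (15.2). Counted from the start, with upstream negative, the median summit lay at 57.5 bases in Mettl3, 45.5 in Rbm15, -191 in Rbm15b, -44 in Wtap (its upstream start) and -62 in Mettl16.

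Mettl3 and Cbll1 had 1 interval, that at the start, in each of the 12 libraries. Rbm15 had 1 in every ESC library, 2, 1 and 2 in CM WT and 1, 2 and 1 in CM KO, the second being a split of the region at its start. Mettl14 had 4, 4 and 4 (WT) and 4, 3 and 4 (KO) in ESC, and 3, 3 and 3 (WT) and 2, 2 and 2 (KO) in CM. Virma had 9, 7 and 10 (WT) and 12, 10 and 13 (KO) in ESC, and 3, 4 and 3 (WT) and 4, 5 and 4 (KO) in CM. For Virma each ESC library was above each CM library.

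Wtap had 3, 2 and 4 (WT) and 3, 3 and 4 (KO) intervals in ESC, and 1, 2 and 2 in CM for either genotype. Zc3h13 had 4, 5 and 3, then 4, 3 and 5, then 1, 2 and 3, then 3, 3 and 3 in the same order of groups, with overlapping numbers in every comparison. Rbm15b had 2, 2 and 2, then 1, 1 and 2, then 2, 2 and 2, then 2, 2 and 3. Mettl16 had 5, 5 and 3, then 4, 4 and 4, then 5, 5 and 5, then 4, 5 and 4.

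**Figure D4:**
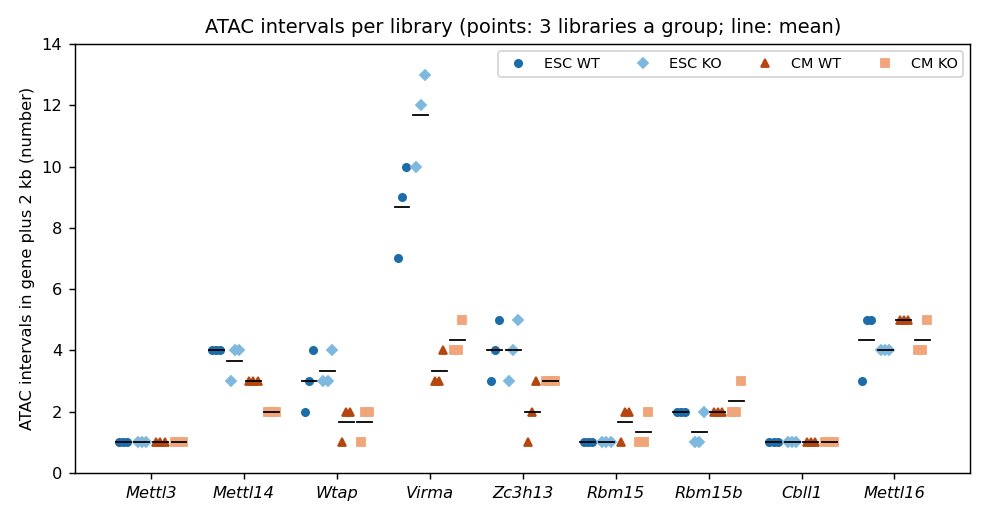
Number of ATAC intervals in each writer gene plus 2 kb in 12 libraries, 3 per group, with a line at the group mean. Virma has 7 to 13 intervals in ESC and 3 to 5 in CM, Mettl14 steps down from 4 to 2, and Mettl3 and Cbll1 have 1 throughout.

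In CM WT against ESC WT, 2 of 9 members passed an adjusted p of 0.05 (limma, Benjamini-Hochberg over 30606 genes), both downward, where 18.1% of genes passed downward and 5.01% upward. Virma fell by 1.15 on the log2(intervals + 1) scale (SE 0.15, adjusted p = 0.00098), and Mettl14 fell by 0.32 (SE 0.07, adjusted p = 0.0142). These 2 were also the members whose groups did not overlap, as 21.9% of genes were downward and 6.07% upward. Zc3h13 (-0.77, SE 0.26, adjusted p = 0.0668) and Wtap (-0.58, SE 0.25, adjusted p = 0.141) did not pass. The exact permutation test of 3 libraries against 3 gave p = 0.1 for Virma and Mettl14, the smallest it allows, so it cannot pass 0.05. With equal numbers of intervals per library Mettl14 did not pass (-0.14, adjusted p = 0.584), which left 1 member called. Scaled to the library total it did not pass either (-0.06, adjusted p = 0.626), and Mettl16 passed upward (0.47, adjusted p = 0.0232) beside Virma downward.

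In CM KO against ESC KO the same 2 members passed, again downward, where 23.3% of genes passed downward and 0.859% upward. Virma fell by 1.246 (SE 0.15, adjusted p = 0.000724, limma) and Mettl14 fell by 0.63 (SE 0.07, adjusted p = 0.000577). With equal numbers of intervals per library the call of Virma was lost (-0.76, adjusted p = 0.193). Wtap (-0.72, adjusted p = 0.0692) did not pass, although its groups did not overlap, which made 3 such members (27.2% of genes downward, 0.993% upward). Rbm15b (0.53, adjusted p = 0.0504) lay at the threshold. Scaled to the library total, the call of Mettl14 was lost (-0.16, adjusted p = 0.162) and 5 members passed, Virma downward and Rbm15b (0.95), Mettl16 (0.62), Mettl3 and Cbll1 (0.33 each) upward. Mettl3 and Cbll1 have 1 interval in every library, so their scaled value follows the total alone.

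In ESC KO against ESC WT none of the 9 members passed in limma (0.575% of genes passed downward and 0.693% upward), and 2 had an unadjusted p under 0.05. These were Virma (0.40, SE 0.15, adjusted p = 0.389), with overlapping groups at 10, and Rbm15b (-0.39, SE 0.17, adjusted p = 0.494). No member's groups were without overlap, as those of 2.64% and 3.53% of genes were. In CM KO against CM WT, Mettl14 fell by 0.42 (SE 0.07, adjusted p = 0.0132) and was the only member called, where 5.67% of genes passed downward and 0.912% upward. It was also the only one whose groups did not overlap (9.46% and 1.39% of genes). The call was lost with intervals of a −log10 q of at least 5 (-0.14, adjusted p = 0.774) and with equal numbers per library (-0.28, adjusted p = 0.306), and CM KO libraries had fewer intervals in all. Scaled to the library total it was lost too (-0.23, adjusted p = 0.101), and Virma passed in its place, upward (0.54, adjusted p = 0.0399).

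The spread behind the Mettl14 calls rests on 1 library, since all groups but ESC KO held the same number in each of their 3 libraries. Of all 2015 genes called between CM KO and CM WT, 22.9% had no spread in any group. The difference of the knockout effect between CM and ESC was tested in the same fit: 0 members passed (3.92% of genes passed downward and 0.98% upward), and Mettl14 had the lowest p (-0.31, SE 0.11, adjusted p = 0.197, limma). It passed with 10 kb of flank (-0.52, adjusted p = 0.0248) and without ESC KO replicate 2, where no spread was left. Rbm15b (0.53, adjusted p = 0.325) passed without ESC KO replicate 3 (0.72, adjusted p = 0.0427).

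The intervals of all libraries merged into 193427 regions, 43 of them in the members. Of these 43, 13 were called in all 12 libraries (30.2%, against 21.1% of all regions). Every region at an annotated start of a member was among the 13, and the share over the starts of other genes was not computed. Opened regions were those that all 3 libraries of the group named first called and no library of the other did, and closed regions were the reverse. In CM WT against ESC WT, 1 member region opened and 5 closed (5.83% and 11.5% of all regions), and in CM KO against ESC KO 1 opened and 6 closed (0.948% and 9.74%). In ESC KO against ESC WT it was 1 and 1 (1.246% and 1.37%), and in CM KO against CM WT 0 and 0 (0.754% and 3.74%). With 3 libraries against 3 such a region has an exact p of 0.1, and a region without an interval only missed the authors' threshold.

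The region opened in CM in both genotypes lay in Rbm15b, chr9:106885873-106886609, centred 834 bases inside the gene start. It was called in 6 of 6 CM libraries and 0 of 6 ESC libraries, at a fold of 2.65 to 2.91 in CM WT and 2.30 to 3.39 in CM KO, with −log10 q of 3.84 to 5.17 and 1.91 to 6.51. Those are low values, and with a −log10 q of at least 5 the region no longer met the rule. A second Rbm15b region, chr9:106884330-106884552, 2634 bases inside, was called in 3 of 3 ESC WT libraries (fold 2.84 to 3.26) and in none of the other 9. It was the 1 member region closed in ESC KO.

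In Virma, the region chr4:11529266-11529909 was the strongest that separated the cell types, at a fold of 9.29 to 10.7 in ESC WT and 10.3 to 11.1 in ESC KO, and was not called in any of the 6 CM libraries. Its −log10 q in ESC was 21.4 to 27.1. Virma regions at 30946 and 40209 bases from the covered gene end also closed in CM WT, and those at 24522 and 62647 bases closed in CM KO. The region at 24522 bases, chr4:11510322-11510639, was called in 3 of 3 ESC KO libraries (fold 2.88 to 5.71) and in no other library, and was the member region that opened in ESC KO. By contrast, the Virma regions at 50, 60098 and 64313 bases were called in all 12.

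**Figure D5:**
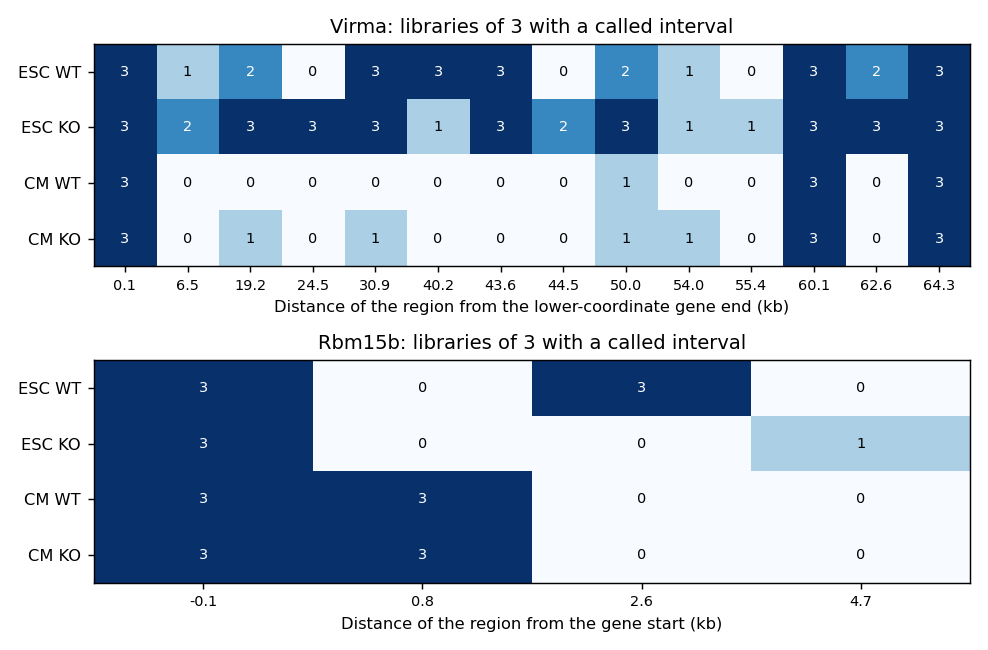
Number of libraries, of 3 per group, with a called interval in each merged region of Virma and Rbm15b, ordered by distance in kb. The Virma region at 43.6 kb is called in 3 of 3 libraries of both ESC groups and in none of CM, and the Rbm15b region at 0.8 kb shows the reverse.

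In Mettl14, the region chr3:123379729-123379997 was called in 3 of 3 ESC WT libraries (fold 5.26 to 8.28), 2 of 3 ESC KO libraries and no CM library. The region chr3:123369084-123369490 was called in all ESC libraries, 2 of 3 CM WT libraries and 0 of 3 CM KO libraries. In Wtap, the region chr17:12967622-12967917 was called in 2 of 3 ESC WT, 3 of 3 ESC KO, 1 of 3 CM WT and 0 of 3 CM KO libraries. In Mettl16, chr11:74826197-74826442 was called in 2, 3, 1 and 0 libraries of the groups in that order. The Zc3h13 region chr14:75303779-75304263 was called in 11 of 12 libraries, at a fold of 13.5 to 16.9 in ESC WT, 9.93 to 10.1 in ESC KO, 4.21 to 5.94 in CM WT and 6.59 to 7.37 in CM KO.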

How the data were processed

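Members and lists were chosen with earlier results of these data known. All 9 members are named; from the other lists, up to 3 genes per comparison with the largest log2 ratio. Per the submitters' processing notes the build was mm10 and the tools were HISAT2, MACS2, Picard, Bowtie and cutadapt, with no role or version.

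The deposited ATAC lists hold a score, the fold enrichment (a ratio) and −log10 p- and q-values of each summit. The score was not used, summits of 1 interval were merged (also in CM KO replicate 3, whose label names total RNA as the molecule although its file is a peak list), and intervals were assigned to the RefSeq gene plus 2 kb. Numbers as log2(intervals + 1) were tested with limma 3.58.1 (R 4.3.3; trend, robust) over 30606 genes with an interval in at least 3 libraries, adjusted by Benjamini-Hochberg. For CM KO against CM WT, data of 30606 genes were simulated with binomial noise. Of 100 genes changed 2-fold 34 were recovered, and 89 of 100 changed 4-fold, with 10 false calls. A missing call therefore does not show equal numbers. The larger fold was added after a first run with 2-fold changes alone. Changed genes were drawn from those with a mean of at least 4 intervals, which among the members only Virma and Mettl16 reached. The recovery rates therefore do not carry over to the other members.

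The authors' RPKM values are unreplicated. Whole reads were recovered from their steps, to within 0.002 for the genes named. Gene lengths were taken within 5% of the RefSeq length where possible and otherwise as the smallest that fits, a rule set after the values were seen. Folds have 95% counting intervals. Log2 ratios used RPKM + 1, and counts used genes at 1 RPKM or more in either library.

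The deposited m6A lists give motif positions as whole-number distances. These were read as counted from 0 at the gene start. In RefSeq promoter letters this reading found the motif at 98 of 449 positions of plus-strand genes (21.8%). For minus-strand genes it was 122 of 536 (22.8%). Other shifts from the start gave at most 1.30%, so this reading fitted best, although most positions in those letters did not match.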

Additional observations from a re-analysis of the deposited data

Results flagged for a closer look

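The ratio of KO to WT chromatin RNA lay below 1 in ESC and above 1 in CM for 6 of the 8 members with a level, although the ESC interval of Cbll1 (0.793 to 1.00) reached 1. This difference was not tested, as each group had 1 library. The CM ratio divided by the ESC ratio was 1.61 for Mettl14 (1.36 to 1.91), 1.51 for Rbm15 (1.37 to 1.67), 1.43 for Cbll1 (1.21 to 1.71), 1.30 for Wtap (1.19 to 1.41), 1.29 for Mettl16 (1.20 to 1.39) and 1.24 for Zc3h13 (1.13 to 1.35), where the 95% intervals cover counting error only. Virma lay above 1 in ESC and below it in CM, at 0.932 (0.849 to 1.02), with intervals that included 1 in both cell types. Over 4090 genes the median of this value was 1.28, and 50.8% of them lay below 1 in ESC and above 1 in CM. Listed m6A positions of Virma also moved in opposite directions, by 1 in ESC (5 in WT, 6 in KO) and by -8 in CM (11 in WT, 3 in KO), and this difference was not tested either.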

How the results depend on the processing

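For chromatin RNA the members' median log2 ratio in CM WT against ESC WT was -0.35 and moved to -0.58 and -0.46 with pseudocounts of 0.1 and 0.5. With libraries scaled to a median ratio of 1 it was -0.13, and in ESC KO against ESC WT -0.0103 in place of -0.11. For CM KO against CM WT it was 0.17, 0.24 with a pseudocount of 0.1 and 0.0284 when scaled. Members past the fold in CM WT against ESC WT numbered 1 at 2-fold, 5 at 1.5-fold, 7 at a ratio of 0.8 and 0 at 2-fold when scaled. For CM KO against ESC KO they were 0, 1 and 2, and at the ratio of 0.8 or its inverse 1 in ESC KO against ESC WT and 3 in CM KO against CM WT. The members' m6A ratio of CM KO to CM WT, 0.595, was 1.09 when scaled to the list totals. Counting GGAC alone was added after seeing the data and gave 0 positions for Wtap in CM WT and for Virma in CM KO.

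With equal numbers of intervals per library, limma called 1 member in CM WT against ESC WT and 0 in CM KO against CM WT, also 0 with −log10 q of at least 5. Scaling to the library total gave 5 members in CM KO against ESC KO, and 10 kb of flank gave 1 for the difference of the knockout effects. With the replicate number as a block, 4 members passed in CM KO against ESC KO, Wtap (-0.72, adjusted p = 0.0493) and Rbm15b (0.53, adjusted p = 0.0378) being added, and no other call of a member changed. Same-numbered libraries had correlations from -0.02 to 0.01, and libraries of different number from -0.02 to 0.02, so no pairing by number was seen. Whether same-numbered libraries shared a culture or batch was not tested. Of 855 values of single genes under the alternatives, 19 gained and 9 lost a call, 0 called values reversed and 29 changed sign with neither value called. Without 1 library at a time the members called ranged from 2 to 3 in both comparisons of CM with ESC, and from 0 to 1 for the difference of the knockout effects.

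Members without overlap numbered 1 with equal numbers and 6 when scaled in CM WT against ESC WT, 6 when scaled in CM KO against ESC KO, 1 with equal numbers in ESC KO against ESC WT, and 0 and 6 in CM KO against CM WT. When scaled, 5 of the 6 were higher and 1 lower in each of these 3 comparisons, Virma being the lower one in both comparisons of CM with ESC and Mettl14 in CM KO against CM WT. The unscaled members without overlap were all lower. Leaving out 1 library gave 2 to 3, 3 to 4, 0 to 2 and 1 to 2. Regions opened in CM WT against ESC WT numbered 2 with 10 kb, 0 at −log10 q of at least 5, 2 with equal numbers and 2 under the rule of 2 of 3, and closed ones 8 with 50% coverage, 10, 3 with equal numbers and 8. For CM KO against ESC KO, opened were 0 with 50% coverage, with −log10 q of at least 5 and with equal numbers, and 2 under 2 of 3, and closed were 2 with equal numbers and 10 under 2 of 3. In ESC KO against ESC WT, opened were 0 with equal numbers and 3 under 2 of 3, and closed were 0 with −log10 q of at least 5 and with equal numbers. For CM KO against CM WT, 1 closed under 2 of 3. Leaving out 1 library gave 1 to 2 opened and 5 to 7 closed, 1 to 2 and 6 to 9, 1 to 2 and 1 to 2, and 0 to 1 and 0 to 1. Opened regions became 2 without ESC WT replicate 1 or CM WT replicate 2 (CM WT against ESC WT), CM KO replicate 3 (CM KO against ESC KO) and ESC KO replicate 1 or 2 (ESC KO against ESC WT), and closed ones 2 there without ESC KO replicate 3. Between CM KO and CM WT, 1 opened without CM WT replicate 3 and 1 closed without CM WT replicate 1. Members without overlap became 2 without ESC WT replicate 3 and 1 without ESC KO replicate 2 or 3 in ESC, and 2 without CM WT replicate 2 or 3 or CM KO replicate 2 in CM. The cause of these moves was not tested. Strand, the DRACH form and flanks could not be run for m6A positions, whose lists give 4 letters within a gene. The depth of the ATAC and m6A libraries is unknown.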
